A study of Drosophila melanogaster with 3 samples.

Results

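The 43 genes described here build or specify the muscles of *Drosophila melanogaster*: 28 encode proteins of the contractile apparatus and its Z-discs, and the other 15 act in muscle attachment, myoblast fusion or transcriptional control of the mesoderm. The list names them by symbol, and no rule on their binding values set who belongs to it, although it was drawn up with earlier results of these data known. They make up 43 of the 13945 protein-coding genes annotated on the chromosomes that carry peaks. Of these symbols, 42 stood in the Ensembl annotation as written. The remaining gene, *Unc-89*, is annotated there as *Obsc* and was found through its RefSeq synonym.

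Binding was measured by chromatin immunoprecipitation and sequencing (ChIP-seq) of CG12104, in a stable transgenic fly line that carries the protein with GFP fused to its C-terminus. Whole embryos of both sexes, 0 to 24 h old, were collected as 3 biological replicates, all of the same line and with no second group. Sonication gave chromatin fragments of 200 to 800 bp, from which those bound by the fusion were pulled down through its GFP tag. The labels do not state which promoter drives the fusion or whether the endogenous gene is also intact.

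The deposited lists give, for each region, a summit and a signal, a value given to it by the authors' peak caller. The set that passed the irreproducible discovery rate (IDR), a measure of how well replicate rankings match, holds 4060 regions with a pooled signal of at least 105.9. A longer pooled list, deposited as peaks and background, holds 26959 regions, and each replicate list holds 30000. The deposited q-values reach 0.96 in the pooled list and 0.91, 0.96 and 0.82 in replicates 1, 2 and 3. These lists thus include background regions, and a listing there is not by itself evidence of binding. Signal was not scaled between lists, so replicates were compared by rank, with rank 1 the strongest region. No read counts were given, so the depth behind each region is unknown. In whole embryos, binding in few cells and weak binding in many cells cannot be told apart. With 1 group there was no contrast to test: counts at the muscle genes are set beside the same count over all protein-coding genes and carry no p-value.

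The larval body wall muscles of the fly arise in the embryonic mesoderm, where founder cells that express identity transcription factors fuse with fusion-competent myoblasts into a syncytial fibre. Sarcomeres are then assembled from thick myosin filaments and thin actin filaments, anchored at the Z-disc and linked by titin-like elastic proteins. The fibre ends are held to tendon cells through integrins. The MADS-box factor Mef2 acts in nearly all of these cells and activates many of the structural genes, and Twist, an early mesoderm factor, binds E-boxes such as CATATG.

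Promoter peaks were IDR peaks with the summit within 500 bp of an annotated transcription start site (TSS) of the gene, and distal peaks were those farther away that lay inside the gene or had the gene's TSS as their nearest within 5 kb. The strongest promoter peaks were at *Msp300*, *tin*, *sls*, *rols* and *Act87E*. Their sequences around the summit are shown first, with that of *mew*, the other promoter that held a Mef2 site. Each is 151 bases long, centred on the summit, in Release 6 (dm6) coordinates and read 5′ to 3′ on the plus strand of the genome. Capitals mark the Mef2 consensus site or the E-box CATATG, on either strand.
Msp300 promoter, chr2L:5108080-5108230: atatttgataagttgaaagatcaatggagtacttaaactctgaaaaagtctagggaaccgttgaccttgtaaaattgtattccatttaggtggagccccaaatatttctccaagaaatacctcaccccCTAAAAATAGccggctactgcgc
tin promoter, chr3R:21378706-21378856: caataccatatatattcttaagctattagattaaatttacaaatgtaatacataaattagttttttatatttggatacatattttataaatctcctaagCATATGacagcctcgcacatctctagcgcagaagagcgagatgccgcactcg
sls promoter, chr3L:2115820-2115970: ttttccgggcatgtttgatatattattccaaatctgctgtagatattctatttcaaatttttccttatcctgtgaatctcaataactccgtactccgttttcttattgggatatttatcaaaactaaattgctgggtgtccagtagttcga
rols promoter, chr3L:12056801-12056951: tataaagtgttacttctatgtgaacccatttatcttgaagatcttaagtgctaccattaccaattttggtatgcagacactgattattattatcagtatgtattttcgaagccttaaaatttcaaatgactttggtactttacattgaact
Act87E promoter, chr3R:13425607-13425757: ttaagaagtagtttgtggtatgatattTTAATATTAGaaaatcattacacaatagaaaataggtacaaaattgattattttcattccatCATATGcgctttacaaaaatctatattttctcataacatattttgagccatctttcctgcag
mew promoter, chrX:13258804-13258954: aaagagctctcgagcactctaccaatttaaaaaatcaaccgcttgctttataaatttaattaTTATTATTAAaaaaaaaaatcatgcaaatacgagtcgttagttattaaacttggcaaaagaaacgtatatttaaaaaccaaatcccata

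The 3 strongest distal peaks followed, at *bin*, *Msp300* and *tmod*. The *bin* window lies between genes and the others are intronic.
bin distal, chr3L:6989287-6989437: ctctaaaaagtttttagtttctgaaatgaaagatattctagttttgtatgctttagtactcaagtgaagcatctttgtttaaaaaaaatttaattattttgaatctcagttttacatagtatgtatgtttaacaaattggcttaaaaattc
Msp300 distal, chr2L:5145681-5145831: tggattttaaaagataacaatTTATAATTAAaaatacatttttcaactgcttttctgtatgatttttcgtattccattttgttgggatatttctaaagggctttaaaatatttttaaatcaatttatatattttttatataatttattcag
tmod distal, chr3R:30540346-30540496: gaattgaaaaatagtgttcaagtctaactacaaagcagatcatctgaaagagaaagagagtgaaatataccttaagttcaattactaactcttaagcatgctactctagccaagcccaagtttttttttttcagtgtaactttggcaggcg

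An IDR promoter peak was found at 12 of the 43 muscle genes (27.9%), against 18.7% of all protein-coding genes. This depended on the window: within 200 bp of a TSS the count was 4 of 43 (9.30%), below the 12.2% of all genes. The 12 genes were *Act87E*, *Tm1*, *tmod*, *sls*, *if*, *mew*, *Msp300*, *rols*, *mbc*, *blow*, *Mef2* and *tin*. A distal peak was tied to 18 of the 43 (41.9%), against 9.21% of all protein-coding genes. That count was 11 (25.6%, against 6.85%) when replicate 2 was left out and the peak had to be in the top regions of both others. It was 10 (23.3%, against 5.06%) with only the 2030 strongest IDR peaks. Of the 43, 22 had at least 1 peak of either kind (51.2%, against 25.0%), 8 had both kinds and 21 had none.

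Muscle genes are longer than most genes, and a longer gene offers more sequence in which a peak can lie. Their median length was 11.4 kb, against 2.17 kb over all protein-coding genes. Among the 16 muscle genes of 20 kb or longer, 8 had a promoter peak, against 24.5% of all genes of 20 kb or longer. The median length was 45.8 kb in these 16 genes and 37.0 kb in all genes of 20 kb or longer, so lengths still differed. In the same 16 genes, 10 had a distal peak (62.5%), against 44.0%. Among the 27 shorter muscle genes, 4 had a promoter peak (14.8%), against 18.3%, and 8 had a distal peak (29.6%), against 6.48%. Their median length of 4.88 kb was also above that over all protein-coding genes. The number of start sites also matters for the promoter rule. Of the 19 muscle genes with 3 or more annotated TSSs, 6 had a promoter peak (31.6%), against 40.6% of all genes with that many. Peaks inside the gene body numbered 2.93 per 100 kb of muscle gene and 2.54 per 100 kb over all genes. Gene length and the number of start sites thus differ between the list and its background, and their part in the counts was not tested further.

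**Figure D1:**
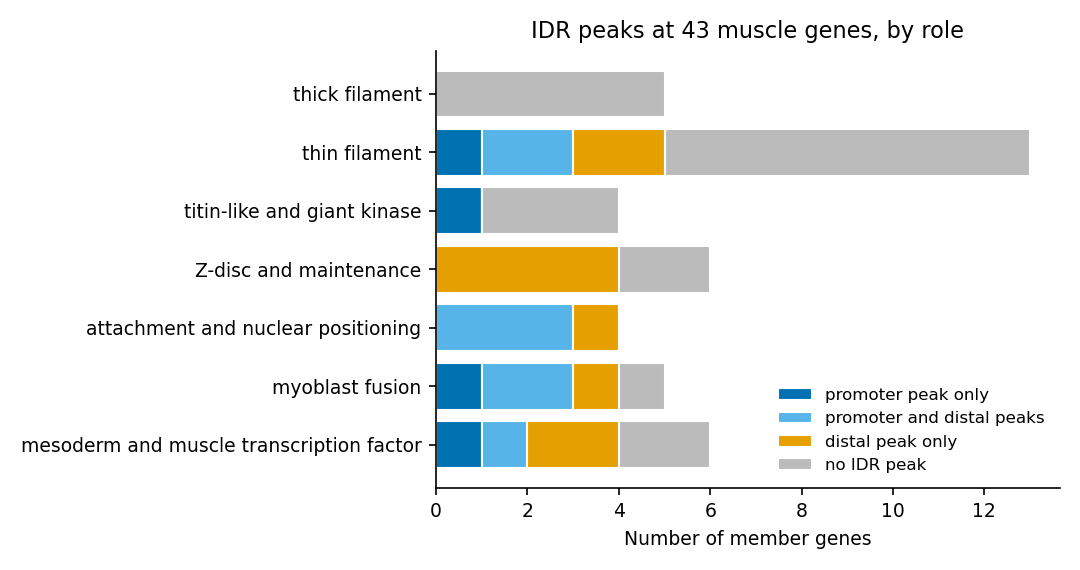
Number of muscle genes in each role (horizontal axis, genes) with an IDR promoter peak only, both kinds of peak, a distal peak only or no IDR peak. All 5 thick filament genes are without a peak, and all 4 genes of attachment and nuclear positioning have one.

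The roles differed in how many of their genes carried peaks. None of the 5 thick filament genes had an IDR peak, while all 4 genes of attachment and nuclear positioning had a distal peak and 3 of them a promoter peak as well. Peaks of either kind were found at 5 of 13 thin filament genes, 1 of 4 titin-like and giant kinase genes, 4 of 6 Z-disc and maintenance genes, 4 of 5 myoblast fusion genes and 4 of 6 transcription factor genes. Over all protein-coding genes, 25.0% had a peak of either kind. The roles also differ in gene length. Genes of attachment and nuclear positioning are 31.25 to 106.1 kb long, and thick filament genes 3.1 to 22.2 kb. These groups are small and were not tested against each other, and the part of length in their counts was not tested.

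The thick filament genes are *Mhc*, the muscle myosin heavy chain, *Mlc1* and *Mlc2*, its light chains, *Prm*, which encodes paramyosin, and *Mf*, which encodes myofilin. Only *Mf* had a promoter region in the pooled list, with a signal of 45.8 and rank 15546, below the IDR minimum. *Mhc* was listed in each replicate alone, at ranks 28135, 22030 and 16046 in replicates 1, 2 and 3. *Mlc1* was listed at rank 29328 in replicate 1 alone and *Prm* at rank 28268 in replicate 3 alone. *Mlc2* had no promoter region in any list.

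Among the 13 thin filament genes, *Act87E*, *Tm1* and *tmod* had promoter peaks. *Act87E* encodes a muscle actin, and its summit lay 301 bp upstream of the TSS with a signal of 209.7 (IDR rank 1357). The replicate regions ranked 1690, 1229 and 1288 in replicates 1, 2 and 3, a narrow spread. *Tm1* encodes tropomyosin, which lies along the actin filament, and has 8 annotated start sites. Its peak was intronic, 165 bp upstream of the second of these, where transcript Tm1-RG starts, with a signal of 196.2 (IDR rank 1545) and replicate ranks of 1414, 2083 and 1421. *tmod* encodes tropomodulin, which caps the pointed end of the thin filament. Its promoter peak was among the weakest of the 12 (signal 118.5, IDR rank 3427) and lay 466 bp upstream of the last of 9 start sites, with replicate ranks of 4772, 2507 and 5585, so it was in the top 4060 regions of replicate 2 alone.

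A stronger peak of *tmod* lay inside the gene, 1462 bp downstream of the fourth start site, with a signal of 354.2 (IDR rank 504) and replicate ranks of 1130, 424 and 368. It was in the top regions of all 3 replicates, unlike the promoter peak. The other distal peaks of thin filament genes lay outside the gene bodies. The peak 3994 bp upstream of *Act57B*, another muscle actin gene, had a signal of 185.0 and replicate ranks of 1448, 2045 and 1823. That of *Act87E*, 2058 bp downstream of its second TSS, had a signal of 131.6 and ranks of 11850, 2773 and 1247, so replicate 1 stood apart. The peak of *TpnC47D*, a troponin C gene, lay 572 bp upstream of the TSS, just outside the promoter window, with a signal of 112.5.

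No IDR peak was found at the other 8 thin filament genes, which are *Act88F* and *Act79B* (actins), *Tm2* (tropomyosin), *up* (troponin T), *wupA* (troponin I), *TpnC41C*, *TpnC73F* and *TpnC25D* (troponin C). *Act88F*, the actin of the indirect flight muscles, and *Act79B* had no promoter region in any list. *Tm2* had a pooled promoter region of signal 60.1 (rank 9467), and *up*, *wupA* and *TpnC73F* had pooled regions with signals between 42.6 and 47.8. *TpnC41C* and *TpnC25D* were listed only in replicates, at ranks of 16989 or beyond.

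Of the 4 titin-like and giant kinase genes, only *sls* had an IDR peak. *sls* encodes Sallimus, the elastic titin-like protein between Z-disc and thick filament, and is 75.9 kb long with a single annotated TSS. Its promoter summit lay 284 bp upstream, with a signal of 302.2 (IDR rank 681) and replicate ranks of 1132, 611 and 479, all in the top regions. *Strn-Mlck*, a giant kinase gene, had a pooled region of signal 75.9 at rank 6552, and its replicate ranks of 13188, 10811 and 2344 placed it in the top regions of replicate 3 alone. *bt*, which encodes projectin, had a pooled region of signal 57.3 and more even replicate ranks of 8393, 7200 and 8414. *Unc-89*, the obscurin gene, had no promoter region in any list.

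**Figure D2:**
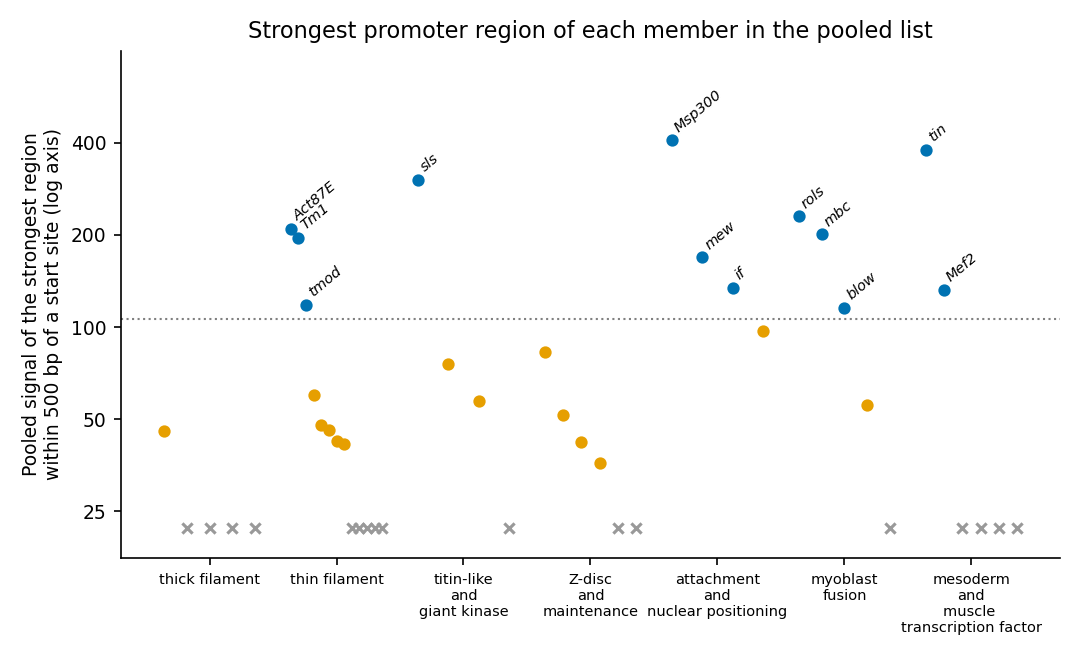
Pooled signal of the strongest region within 500 bp of a start site (vertical axis, log scale) for each of the 43 muscle genes, by role. Blue points with names lie above the IDR minimum of 105.9 (dotted line), orange points below it, and grey crosses mark genes with no promoter region in the pooled list, at no value on the axis; 12 genes are blue, 14 orange and 17 crosses.

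None of the 6 Z-disc and maintenance genes had an IDR promoter peak, but 4 had a distal peak. *Actn* encodes alpha-actinin, which crosslinks thin filaments at the Z-disc. Its peak (signal 191.4, replicate ranks 1069, 1907 and 5541) lay inside the gene 797 bp from the TSS, and at the same time within 500 bp of the start sites of *usp* (202 bp upstream) and *CG4313* (354 bp upstream), so it cannot be given to *Actn* alone. Its pooled promoter region had a signal of 83.1 (rank 5753). *Zasp66* and *Zasp52* encode PDZ-domain proteins of the Z-disc and had intronic peaks of signal 141.7 and 126.4. *tn* encodes a TRIM-NHL protein needed to maintain myofibrils and had an intronic peak of signal 110.2, close to the IDR minimum, with replicate ranks of 4316, 3155 and 5998. *Mlp84B* and *Mlp60A* encode LIM-domain proteins and had no IDR peak. *Mlp84B* had a pooled region of signal 35.9, near the pooled list minimum of 34.8.

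Every gene of attachment and nuclear positioning had a peak, and *Msp300* had the strongest promoter peak of all 43 genes. *Msp300* encodes a giant nesprin that positions nuclei in the fibre. The promoter summit lay in an intron, 357 bp upstream of the second of 5 start sites, with a signal of 407.3 (IDR rank 360) and a -log10 q of 3.54. Every peak of the 43 genes with a signal of 185.0 or more had this same -log10 q. The replicate regions of the *Msp300* promoter peak ranked 399, 376 and 300, close to each other. A stronger distal peak (signal 481.6, IDR rank 256, replicate ranks 192, 275 and 462) lay 630 bp upstream of the fourth start site, so *Msp300* carried strong peaks near a pair of internal starts. A further distal peak had a signal of 117.5 and uneven ranks of 3081, 10900 and 1618.

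*mew* and *if* encode the integrin alpha subunits PS1 and PS2, which stand on opposite sides of the muscle attachment. The promoter peak of *mew* (signal 169.1, replicate ranks 1396, 2530 and 4243) lay 389 bp upstream of its TSS, but nearer to *comt* (142 bp upstream) and within the window of *CG15742* (384 bp upstream). Its 4 distal peaks lay in the introns, the strongest with a signal of 210.0 and ranks of 1361, 1561 and 2447. That peak lay 22905 bp from a start site of *mew* and 2288 bp from that of *CG32639*. The peaks of signal 121.6 and 113.6 also lay nearer to *CG32639* (3893 and 3545 bp). They overlap each other and fall in the same replicate regions. The promoter peak of *if* lay 206 bp downstream of the second of 3 starts (signal 134.2, ranks 2405, 3577 and 4951), and its distal peak had a signal of 109.2 (-log10 q of 1.97). *how*, which encodes an RNA-binding protein needed in muscle and tendon, had an intronic peak 7073 bp downstream of the TSS with a signal of 187.7 and ranks of 2848, 1709 and 1221. Its pooled promoter region, at 97.3 and rank 4588, was the nearest of all the list to the IDR minimum from below.

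Among the 5 fusion genes, *rols*, *mbc* and *blow* had promoter peaks. *rols* encodes the founder-cell adaptor Rolling pebbles. Its summit lay in an intron 402 bp upstream of the second of 2 start sites, with a signal of 230.2 (IDR rank 1149), and the replicate ranks of 1274, 1138 and 1367 were nearly equal. Its 2 distal peaks, of signal 125.1 and 120.5, were weak in replicate 3 (ranks 21367 and 10753) and inside the top regions of the other replicates. *mbc* encodes Myoblast city, an activator of the GTPase Rac. Its promoter summit (signal 201.1, ranks 1410, 1219 and 2416) lay 230 bp upstream of its TSS and 86 bp downstream of that of the divergent gene *Nup98-96*, and is shared by them. Introns of *mbc* held 3 further peaks, the strongest of signal 222.6 with ranks of 1708, 995 and 1466. A neighbouring peak of signal 132.5 overlaps the strongest and falls in the same replicate regions. *blow*, which encodes a cytoplasmic regulator of actin at the fusion site, had the weakest promoter peak (signal 115.5, 68 bp downstream of its TSS), and replicate 1 stood apart with rank 8816 against 3105 and 2984.

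The receptors of the 2 fusing cell types differed in gene length and in their peak counts. *kirre*, the founder-cell receptor also called Dumbfounded, had 11 distal peaks in a gene of 394.1 kb and no IDR promoter peak; its pooled promoter region had a signal of 55.8. The strongest peak had a signal of 308.2 and ranks of 913, 660 and 485, the next a signal of 272.1 and ranks of 1254, 701 and 653, and the weakest of the 11 a signal of 116.6. Of the 11, 4 lay within 500 bp of other genes' start sites that lie inside *kirre*: 2 at *Syx4* (signals 253.0 and 213.9), 1 at *CG32795* and 1 at *CG3588*. The peaks of signal 272.1 and 249.3 lay 1864 and 2587 bp from the start site of *CG32795*. Their distances to a start site of *kirre* were 46653 and 45930 bp. *sns*, the receptor of fusion-competent myoblasts, is 57.6 kb long and had no peak, and no promoter region in any list. Over all protein-coding genes of 20 kb or longer, peaks inside the gene numbered 2.12 per 100 kb. The part of gene length in the counts of *kirre* and *sns* was not tested.

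**Figure D3:**
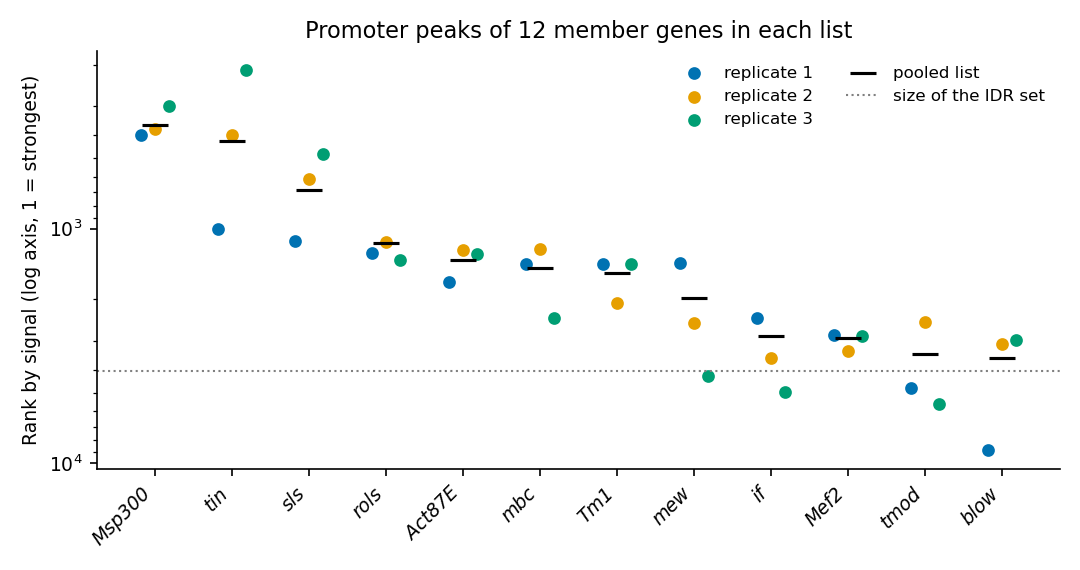
Rank by signal (vertical axis, log scale, strongest at the top) of the 12 promoter peaks in replicates 1 to 3 (coloured points) and in the pooled list (black bars). The dotted line is rank 4060; all 3 replicates lie above it for 8 genes, and *mew*, *if*, *tmod* and *blow* have at least 1 replicate below it.

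Of the 6 transcription factor genes, *tin* and *Mef2* had promoter peaks. *tin* encodes Tinman, the homeodomain factor of dorsal mesoderm and heart. Its summit lay 196 bp upstream of the only TSS, with a signal of 380.3 (IDR rank 424). The replicate ranks of 999, 398 and 210 all lay in the top regions, and replicate 1 was the lowest. The promoter peak of *Mef2* was weaker (signal 132.2, ranks 2842, 3312 and 2859) and lay 57 bp upstream of the first of 3 start sites. *Mef2* also had 3 distal peaks, the strongest 4457 bp upstream of an internal start with a signal of 237.0 and ranks of 737, 1257 and 1076. The weakest of these 3, of signal 119.1, overlaps it and falls in the same replicate region.

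The strongest peak tied to any of the 43 genes was distal and lay 1260 bp upstream of *bin*, which encodes the forkhead factor Biniou of the visceral mesoderm. Its signal was 589.9 (IDR rank 148) and its replicate ranks 125, 195 and 233. The promoter of *bin* itself had no region in the pooled list. *lmd*, the factor of fusion-competent myoblasts, had a peak of signal 146.7 at 2037 bp upstream, with ranks of 4990, 2163 and 2408. *bap*, a homeobox gene of visceral mesoderm, and *nau*, the fly homologue of the vertebrate MyoD genes, had no IDR peak and no promoter region in any list.

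Replicates gave similar counts of bound muscle genes. In the 4060 strongest regions of each replicate, a promoter region was found at 12, 13 and 11 of the 43 genes in replicates 1, 2 and 3, or 27.9% ± 2.33 (SD, n = 3). All protein-coding genes gave 20.2%, 17.0% and 16.9%, or 18.0% ± 1.85 (SD, n = 3). In all 3 replicates 8 of the 43 genes were found (*Act87E*, *Mef2*, *Msp300*, *Tm1*, *mbc*, *rols*, *sls* and *tin*), against 1778 of 13945 protein-coding genes. *Actn*, *Strn-Mlck* and *how* had a top region in at least 1 replicate without an IDR promoter peak. Of the 12 IDR promoter peaks, 8 (66.7%) were in the top regions of all 3 replicates, against 69.9% of all promoter peaks. Of the 37 distal peaks, 18 were (48.6%), against 63.6% of all such peaks.

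Below the IDR minimum, more muscle genes had a listed promoter region. In the whole pooled list, which includes background regions, 26 of 43 had one (60.5%), against 46.2% of all protein-coding genes. Of the 21 genes with no IDR peak, 8 had such a region (38.1%), and the strongest were those of *Strn-Mlck*, *Tm2* and *bt*. Among genes with no IDR promoter peak, a pooled promoter region was found at 14 of 31 muscle genes (45.16%). The share was 33.85% of all protein-coding genes with no IDR promoter peak. In none of the pooled and replicate lists was there a promoter region at *Mlc2*, *Act88F*, *Act79B*, *TpnC47D*, *Unc-89*, *sns*, *lmd*, *bap* or *nau*.

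The promoter summits lay mostly upstream of the start site, at 10 of 12 genes (83.3%, against 89.8% of all bound genes). The median position was -257 bp, against -155 bp, and 7 of 12 summits (58.3%) lay more than 200 bp upstream, against 35.8%. The promoter peak was shared with another gene at 2 of the 12 muscle genes (16.7%), against 62.2% of all bound genes. Among peaks at the promoter of 1 gene only, which includes the weaker peaks of genes whose strongest peak is shared, the medians were -240 bp for 10 muscle genes and -169.5 bp for 1010 genes, and 50% and 42.3% lay more than 200 bp upstream. The median signal was 198.7 at the muscle genes and 186.9 at all bound genes. At 5 of the 12, the bound TSS was not the most upstream one.

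**Figure D4:**
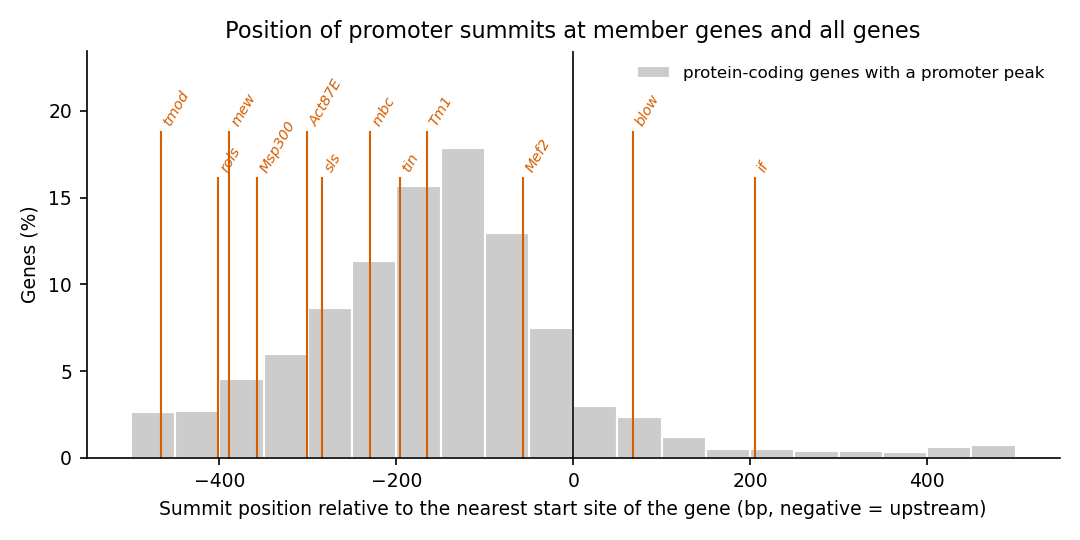
Position of the promoter summit relative to the nearest start site of the gene (horizontal axis, bp, negative is upstream) as a share of the 2613 protein-coding genes with an IDR promoter peak (grey bars, 50 bp each, vertical axis in percent). Named lines mark the 12 muscle genes, at arbitrary height; 10 lie upstream, from -466 bp at *tmod* to -57 bp at *Mef2*.

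The 37 distal peaks were mainly intronic. Of these, 32 lay inside the gene and 5 outside, and 29 were in introns. They form 34 separate stretches, since 3 pairs of neighbouring regions overlap. Their median signal was 146.7, against 158.2 for all distal peaks tied to protein-coding genes. *kirre* held 11 of the 37, *mew* 4, *mbc* and *Mef2* 3 each, and *Msp300* and *rols* 2 each. Without *kirre*, muscle genes held 2.98 peaks inside the gene per 100 kb.

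**Figure D5:**
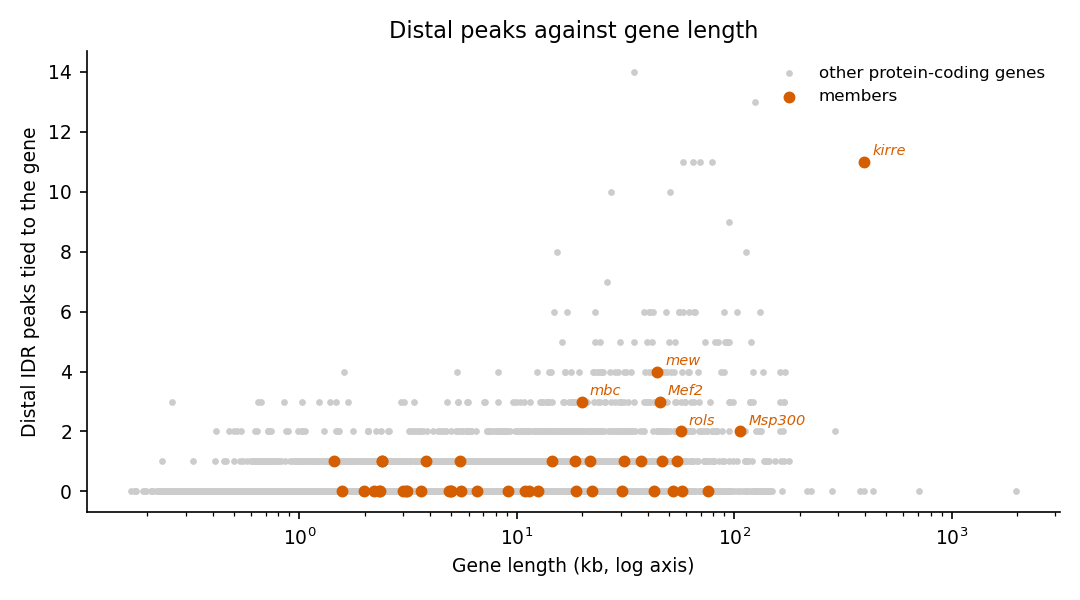
Number of distal IDR peaks tied to a gene (vertical axis) against gene length (horizontal axis, kb, log scale) for the 43 muscle genes (orange) and all other protein-coding genes (grey). Muscle genes with at least 2 distal peaks are named; *kirre*, at 394.1 kb, has 11, and shorter genes of other functions reach as many.

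Short words bound by muscle and general factors were counted in the windows shown above and in those of the other muscle gene peaks. A Mef2 site was found on either strand in the 151 bp around 3 of the 12 promoter summits (25%), those of *Msp300*, *Act87E* and *mew*, against 12.5% of all 2040 promoter peaks. It was found at 4 of the 37 distal summits (10.8%), against 9.46% of 2020 peaks. CATATG was found at 2 of 12 promoter summits (16.7%), those of *tin* and *Act87E*, against 4.85%, and at 2 of 37 distal summits (5.41%), against 6.34%. CAGGTG was found at 1 of 12 promoter summits, that of *Mef2* (8.33%, against 3.58%), while CAGCTG was found at none of them (against 6.08%), nor was CACGTG (against 1.27%). The GAGA element GAGAG was found at 1 promoter summit, that of *mew* (8.33%, against 13.1%), and at 4 distal summits (10.8%, against 16.2%). ACAAT, the core bound by Sox proteins, was found at 4 promoter summits (33.3%, against 41.2%) and 14 distal summits (37.8%, against 43.1%). TATCGATA, the DNA replication-related element, was found at no muscle gene summit (against 5.25% of promoter peaks). The Tinman word CACTTGA was found at 1 distal summit, that of *bin* (2.70%, against 2.82%). The Zelda word CAGGTA, which shares its first letters with CAGGTG, was found at no promoter summit (against 2.55%) and at 3 distal summits (8.11%, against 3.22%). The GATA word AGATAA was found at 1 promoter summit (8.33%, against 10.7%) and at 2 distal summits (5.41%, against 13.0%). TATAAA, which can lie inside a Mef2 site, was found at 4 promoter summits (33.3%, against 33.7%) and 11 distal summits (29.7%, against 30.1%). ACAAAG, bound by HMG-box proteins such as TCF, was found at 1 promoter summit (8.33%, against 8.82%) and 5 distal summits (13.5%, against 11.1%). The initiator word TCAGT was found at 2 promoter summits (16.7%, against 22.3%). The core promoter word GGTCACAC was found at 1 promoter summit (8.33%, against 2.25%). Median GC content was 35.1% at the promoter summits, against 32.5%, and 33.8% at the distal ones, against 33.1%. A match describes the letters only.

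A longer list of 84 further muscle genes gave a promoter peak at 17 (20.2%), near the share of all genes, and a distal peak at 22 (26.2%, against 9.21%). Of these 84, 27 are 20 kb or longer. Of the 27, 14 had a distal peak (51.9%, against 44.0% of all genes of that length). Among the 57 shorter ones, 8 had a distal peak (14.0%, against 6.48%). Promoter peaks were found at 5 of the 27 (18.5%, against 24.5%) and 12 of the 57 (21.1%, against 18.3%). The part of gene length in these counts was not tested. Peaks of either kind were found at 35 of the 84 (41.7%, against 25.0% of all genes). By role, they were found at 9 of 18 other sarcomere and actin genes, 10 of 17 attachment genes, 4 of 12 fusion genes, 7 of 27 mesoderm and muscle regulators and 5 of 10 genes of excitation and calcium handling. The strongest promoter peaks were at *Pax* (paxillin, 625.4), *Fhos* (a formin, 465.4), *Argk* (arginine kinase, 377.2) and *Hem* (a subunit of the actin regulator SCAR/WAVE, 375.5). The peak at *Pax* (297 bp upstream) lay nearer to the start sites of *Alp12* and *CG13085* (both at -201 bp), and that at *Hem* (333 bp upstream) nearer to the start site of *IleRS* (at -137 bp). The strongest distal peaks were at *stck* (the LIM protein PINCH, 478.3), *tsr* (cofilin, 334.4), *Act5C* (a cytoplasmic actin, 293.0) and *rhea* (talin, 288.4), most of which act at integrin sites or on actin in many cell types. The distal peak of *Act5C* lay only 612 bp upstream of its TSS. It overlaps the promoter peak of *Act5C* (signal 263.3) and falls in the same replicate regions.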

How the data were processed

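All 3 replicates formed 1 group. The authors deposited peak lists in dm6 and dm3, of which the dm6 lists were used here: 3 replicate lists, a pooled list and the IDR set. Signal is the value of the authors' peak caller, deposited per region and not scaled between lists. The −log10 of a q-value, also deposited by the authors, was used only to describe peaks. Per the text lists deposited with the peaks, regions were called against a control alignment, which was not analysed here. The names of the aligner and peak caller, and the numbers of reads, are not given in these sources.

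Start sites and genes came from the Ensembl BDGP6 annotation (release 115), and sequences from the RefSeq genome of the same assembly. Each IDR peak took the rank of the highest replicate region overlapping it by at least 1 bp. Neighbouring peaks can take the same replicate region. Motifs were searched on both strands in 151 bp around the summit. Computations used Python 3.11.15 with pandas 2.3.3, numpy 2.4.6 and matplotlib 3.10.9, and the assignment of peaks to genes was tested on simulated peaks. Between any pair of replicate lists, 0 regions had the same coordinates. The replicates are separate biosamples of the same line.

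Named in detail were all muscle genes with a promoter peak, the strongest distal peaks, all fusion and transcription factor genes, and the 3 strongest promoter regions at genes with no IDR peak. Of the further muscle genes, the 4 strongest promoter and 4 strongest distal peaks were named. The genes and both lists were chosen with earlier results of these data known, and the split by number of start sites was added after the counts had been seen. Alternatives were other windows, assignment to the nearest start site only, other signal limits and leaving out each replicate.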

Additional observations from a re-analysis of the deposited data

How the results depend on the processing

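Of 42 alternative values for 12 results, 31 stayed within 1.5 times the reported value. The promoter count depended on the window: within 200 bp of a start site it was 4 of 43 (9.30%, against 12.2% of all genes), so the share fell below that of all genes, and *Act87E*, *Msp300*, *if*, *mbc*, *mew*, *rols*, *sls* and *tmod* were lost. With all pooled regions, 26 genes had a promoter region, 39 a distal region and 41 either, against 46.2%, 44.7% and 67.6% of all genes. With the 2030 IDR peaks of highest signal, 10 genes had a distal peak (23.3%, against 5.06%). Leaving out each replicate in turn and requiring the peak in the top regions of both others gave 8 to 10 promoter genes (against 13.9% to 14.7% of all genes) and 11 to 13 distal genes (against 6.85% to 7.60%), with 11 without replicate 2. With all regions of a replicate list, 27, 29 and 25 genes had a promoter region in replicates 1, 2 and 3 (against 49.3%, 44.1% and 48.4%), and with 2030 top regions 6 each in replicates 2 and 3 (against 10.3% and 9.51%). With each peak given to its nearest start site alone, promoter peaks at *mbc* and *mew* were lost, leaving 10. No paired analysis was possible because all samples belong to 1 group. Depth is unknown, so how it limits weak regions cannot be said.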
